A study of Homo sapiens with 6 samples.

Results

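The genes examined here encode subunits of the nucleosome remodelling and deacetylase (NuRD) complex. They were the ATPase genes CHD3 and CHD4, the scaffold genes MTA1, MTA2 and MTA3, the methyl-CpG-binding-domain genes MBD2 and MBD3, the zinc-finger genes GATAD2A and GATAD2B, and the histone chaperone gene RBBP4. These 10 of the 62754 genes in the table were chosen by name, with earlier results of these data known but by no threshold on a value, and matched to the table by their Ensembl identifiers. NuRD joins an ATP-dependent nucleosome remodeller to the histone deacetylases HDAC1 and HDAC2, so that nucleosome movement and histone deacetylation sit in a single assembly. The MTA proteins hold the deacetylases and the RBBP chaperones, and the MBD and GATAD2 proteins bridge this part to the CHD ATPase. The subunits come in families of paralogs, which largely take each other's place within the complex. HDAC1, HDAC2, RBBP4 and RBBP7 also serve in the SIN3 complex, to which FAM60A belongs.

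RNA was sequenced from 3 control and 3 FAM60A-knockout libraries of HEK293, a human embryonic kidney line transformed with adenovirus DNA. The labels' cell line field names HEK293T, a derivative that carries the SV40 large T antigen. Knockout was done in a pool, not a clone, obtained by transfecting a CRISPR/Cas9 vector with guides against 3 regions of FAM60A and selecting with puromycin, and the labels describe the other 3 libraries only as control. The comparison asks whether the transcripts of a second HDAC1/2 complex differ between cells with and without an intact FAM60A gene. Nothing in the labels says that the replicates came from separate cultures, so p-values measure only the spread between these libraries.

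Total counts lay between 88361827 and 93346824 per library. Control replicate 3 stood apart from the other controls: over the tested genes its median absolute log2 difference from the mean of control replicates 1 and 2 was 0.49, against 0.14 between control replicates 1 and 2 and 0.48 between the knockout mean and control replicates 1 and 2. Results are therefore also given without this library. That choice was made from these same data. The p-values of that fit leave out the spread between control replicate 3 and the other controls, and so understate the spread among all 3 controls. FAM60A, listed as SINHCAF, had levels of 113, 106 and 132 CPM (counts scaled to library size with TMM factors) for control replicates 1, 2 and 3 and of 67.5, 66.0 and 61.7 CPM across the knockout libraries. It fell by 0.85 on the log2 scale (SE 0.11, edgeR quasi-likelihood adjusted p = 0.00863), so RNA counted over the gene remained, and control replicate 3 lay with the controls for the targeted gene. Leaving out any 1 of the knockout libraries moved this edgeR adjusted p to between 0.0571 and 0.0736, and without control replicate 3 the log2 fold change was -0.78 (edgeR adjusted p = 7.73e-09). The 8 HEK293 markers examined (PAX2, EYA1, LHX1, NEFL, NEFM, VIM, KRT8 and KRT18) were all detected, with a summed level of 922 to 1700 CPM for the controls and 745 to 884 CPM for the knockouts, and 2 of the 8 were called, both lower (25%, beside 16.6% of all genes tested). With control replicate 3 left out, 6 of the 8 were called, all lower (75%, beside 65.6% of all genes tested). The 6 markers of other lineages found in the table summed to between 0.73 and 1.97 CPM for the controls and between 1.53 and 1.9 CPM for the knockouts. Of these, PTPRC (0 to 9 counts per library), COL1A2 (0 to 2) and ALB (2 to 9) were too low to test. GFAP, at between 51 and 131 counts per library, was not called. The following markers are singled out after their values were seen. The fibroblast marker DCN was counted 0, 1 and 1 times among the controls and 30, 33 and 33 times across the knockout libraries, and was called in both fits. The muscle marker MYOD1 was counted 3, 4 and 48 times among the controls and 25, 55 and 22 times across the knockout libraries, and was called only without control replicate 3. The part that these marker differences have in the results below was not tested. In bulk RNA of this kind a smaller number of cells that express a gene and less RNA per cell cannot be told apart.

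All 10 genes passed the filter on low counts. With all 6 libraries, 1 of the 10 was called at an adjusted p of at most 0.05, MBD3, which was lower in the knockout. That is 10% of the members, beside 16.6% of all 20992 genes tested, or 8.67% called lower and 7.96% called higher. No member was called with a log2 fold change beyond 1 in either direction (7.06% of all genes). The median log2 fold change of the 10 genes was -0.19, beside -0.01 for all genes, and their median absolute log2 fold change was 0.28, beside 0.39. The knockout and control libraries did not overlap for 4 of the 10 genes (CHD3, MTA3, MBD3 and RBBP4), beside 41.6% of all genes.

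Without control replicate 3, 9 of the 10 genes were called by the same test, beside 65.6% of all genes. MTA1 and RBBP4 were higher in the knockout (32.4% of all genes were), while CHD3, MTA2, MTA3, MBD2, MBD3, GATAD2A and GATAD2B were lower (33.2% of all genes were). CHD4 was the gene not called. MTA1 alone passed a log2 fold change of 1 in either direction, beside 22.9% of all genes. The median log2 fold change was then -0.33, and the median absolute value was 0.41 beside 0.50 for all genes. The 2 control and 3 knockout libraries did not overlap for 9 of the 10 genes, beside 75.4% of all genes.

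**Figure D1:**
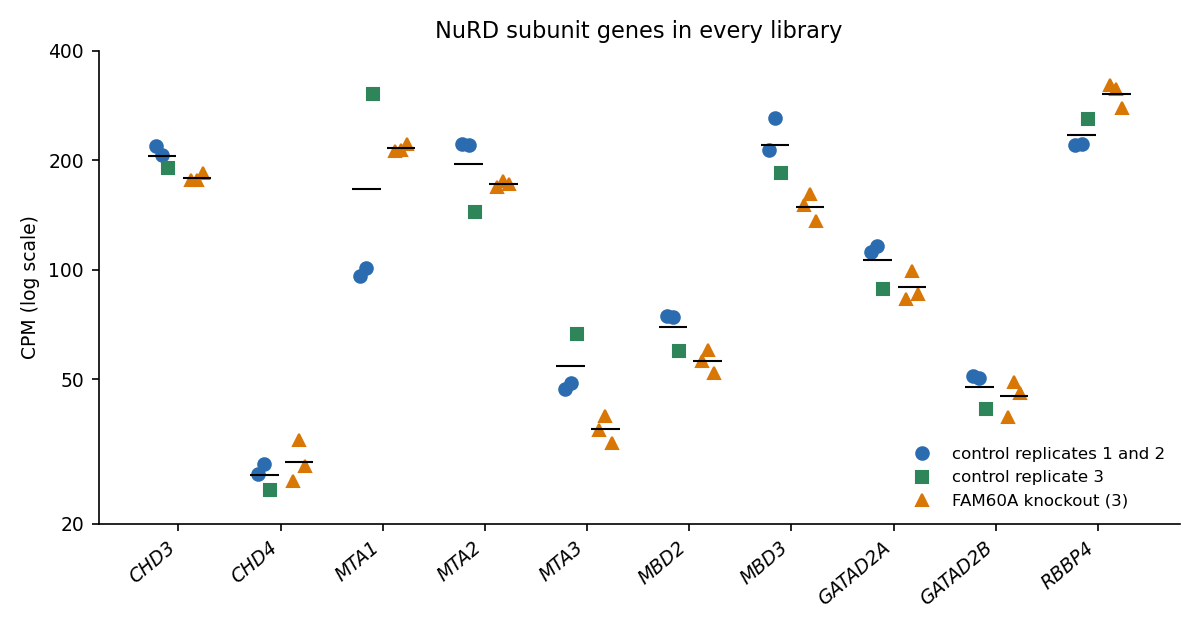
Level of each NuRD subunit gene in every library, in CPM on a log axis. Circles are control replicates 1 and 2, squares control replicate 3, triangles the 3 knockout libraries, and bars the group means over 3 libraries. Control replicate 3 lies far from the other controls for MTA1 (304 CPM against 96.3 and 101) and below them for MTA2, while for MBD3 and RBBP4 all 3 controls lie on one side of the knockout libraries.

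For 8 of the 10 genes the level in control replicate 3 was nearer to the knockout mean than to the mean of control replicates 1 and 2, as it was for 59% of all tested genes. The exceptions were CHD4 and MTA3. Control replicate 3 lay outside the range of all 5 other libraries for 4 genes, above it for MTA1 and MTA3 and below it for CHD4 and MTA2. The share of all tested genes for which this held was not computed, so the count describes these genes only.

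**Figure D2:**
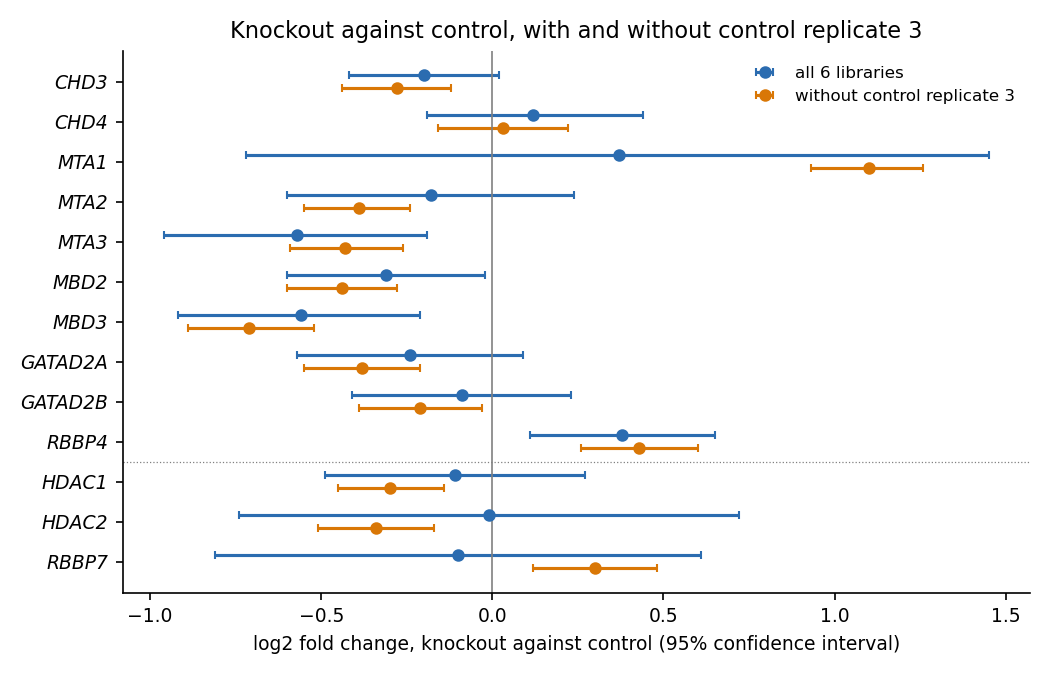
Log2 fold change of knockout against control with its 95% confidence interval for the 10 NuRD subunit genes and, under the dotted line, for HDAC1, HDAC2 and RBBP7. Blue points use all 6 libraries and orange points leave out control replicate 3. The interval of MTA1 runs from -0.72 to 1.45 with all libraries and from 0.93 to 1.26 without control replicate 3.

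The promoters of 3 genes are printed because these genes carry the comparisons: MBD3 is the member called with all libraries, RBBP4 is the member whose 3 knockout libraries all lay above every control, and MTA1 is the member that differed most between the controls. Each sequence is the 250 bases before the annotated start in RefSeq (GRCh38.p14), written in the direction of the gene. Capitals mark matches on either strand to the GC box GGGCGG or to CCAAT (reverse complements CCGCCC and ATTGG), which do not overlap each other in these windows. MBD3 lies at chr19:1592866-1593115 on the minus strand, MTA1 at chr14:105419577-105419826 on the plus strand and RBBP4, at the first of its annotated starts, at chr1:32650958-32651207 on the plus strand.
MBD3 promoter: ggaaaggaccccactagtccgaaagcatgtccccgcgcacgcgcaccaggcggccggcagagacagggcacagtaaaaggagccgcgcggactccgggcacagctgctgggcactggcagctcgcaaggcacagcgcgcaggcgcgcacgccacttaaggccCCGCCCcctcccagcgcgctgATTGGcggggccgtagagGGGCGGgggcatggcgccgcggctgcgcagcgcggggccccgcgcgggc
MTA1 promoter: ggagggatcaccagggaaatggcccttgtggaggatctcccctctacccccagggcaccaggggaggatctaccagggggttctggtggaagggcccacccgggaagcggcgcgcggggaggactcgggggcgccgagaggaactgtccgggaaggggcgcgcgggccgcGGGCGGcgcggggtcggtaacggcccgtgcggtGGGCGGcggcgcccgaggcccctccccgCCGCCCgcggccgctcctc
RBBP4 promoter: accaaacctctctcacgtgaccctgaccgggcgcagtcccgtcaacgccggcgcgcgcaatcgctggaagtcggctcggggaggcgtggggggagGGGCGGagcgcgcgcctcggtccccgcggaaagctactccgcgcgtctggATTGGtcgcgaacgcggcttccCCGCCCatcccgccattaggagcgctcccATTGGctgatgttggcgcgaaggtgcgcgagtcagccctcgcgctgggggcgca

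These windows were rich in G and C, at 74.8% for MBD3, 76.8% for MTA1 and 71.2% for RBBP4, beside a median of 58% over all 35116 RefSeq windows of this length. The ratio of observed to expected CpG dinucleotides was 0.916 for MBD3, 0.829 for MTA1 and 1.17 for RBBP4, beside a median of 0.558. MBD3 had 2 GC boxes and 1 CCAAT match, MTA1 had 3 GC boxes and no CCAAT match, and RBBP4 had 2 of each. All 10 members matched the promoter table, with 14 windows because some genes have several starts. A GC box was found in 12 of the 14 windows (42.6% of all promoters) and CCAAT in 5 (32% of all promoters). The ETS motif CCGGAAG was found in 4 windows, of CHD4, MTA2 and both starts of GATAD2A (8.52% of all promoters), and the YY1 motif AAGATGGC in 1 window, of MBD2 (1.36%). The NRF1 consensus (1.03% of all promoters) and TATAAA (10.7%) were found in none. A match is a description of the letters only and does not show that a factor was bound.

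MBD2 and MBD3 set the character of alternative NuRD assemblies: MBD2 binds methylated CpG sites, whereas MBD3 has little affinity for them. MBD3 (ENSG00000071655, chr19:1573596-1592865, GRCh38) had 214, 262 and 185 CPM for control replicates 1, 2 and 3 and 151, 161 and 136 CPM for knockout replicates 1, 2 and 3. All 3 knockout libraries lay below every control, and control replicate 3 was the lowest control. The mean was 220 ± 38.6 CPM (SD, n = 3) for the controls and 149 ± 12.7 CPM (SD, n = 3) for the knockouts, which was 1.48-fold lower (log2 fold change -0.56, SE 0.15, 95% confidence interval -0.92 to -0.21, edgeR adjusted p = 0.0483). Without control replicate 3 the log2 fold change was -0.71 (SE 0.09, edgeR adjusted p = 6.06e-07). The call with all libraries was close to the threshold: leaving out any of the other 5 libraries gave an edgeR adjusted p between 0.106 and 0.186, while the log2 fold change stayed between -0.42 and -0.62.

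MBD2 (ENSG00000134046) had 74.7, 74.2 and 59.6 CPM among the controls and 56.1, 60.0 and 52.0 CPM across the knockout libraries. Control replicate 3 fell just inside the knockout range, so the groups overlapped. Its log2 fold change was -0.31 (SE 0.12, interval -0.60 to -0.02, edgeR adjusted p = 0.127), and without control replicate 3 it fell by 0.44 (SE 0.08, edgeR adjusted p = 3.4e-05). Summed per kilobase of exon, MBD2 and MBD3 together had 40.1 ± 6.11 CPM per kb (SD, n = 3) in control and 28.7 ± 2.30 in knockout libraries, with no overlap between the groups, and control replicates 1 and 2 alone averaged 43.2 CPM per kb. MBD3 made up 67.3%, 71.7% and 69.1% of this sum among the controls and 65.9%, 65.9% and 65.2% across the knockout libraries. The shares did not overlap, and their difference of -3.72 percentage points had p = 0.1 by a two-sided exact permutation test, the smallest value that 3 libraries against 3 allow (0.14 after Benjamini-Hochberg adjustment over the 7 paralog shares compared). The difference was -3.86 points without control replicate 3. Every share below with an exact permutation p = 0.1 over all libraries likewise had 0.14 after the Benjamini-Hochberg adjustment.

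The gene models limit what can be said of the level and the isoforms of MBD3, and of its share beside MBD2. In GENCODE models placed on GRCh37, 763 of the 960 coding bases of MBD3 (79.5%) were also exons of ENSG00000267059 on the same strand, which had between 2 and 6 counts in every library. How reads over these bases were assigned is not shown by the files. Of all MBD3 exon bases, 9.7% were affected.

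The MTA proteins are the scaffold that dimerises, recruits HDAC1 or HDAC2 and activates it. MTA1 (ENSG00000182979, chr14:105419827-105470729, GRCh38) had 96.3, 101 and 304 CPM for control replicates 1, 2 and 3 and 212, 213 and 222 CPM across the knockout libraries. The 3 knockout libraries were close together and lay between the first 2 controls and control replicate 3, which was 3.08 times the mean of the other controls. With all libraries the log2 fold change was 0.37 with an SE of 0.45 (edgeR adjusted p = 0.601). Without control replicate 3 MTA1 was 2.14-fold higher in the knockout (log2 fold change 1.10, SE 0.08, edgeR adjusted p = 8.71e-11), the largest change among the 10 genes in that fit.

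MTA2 (ENSG00000149480) showed the opposite order of libraries, with 222, 220 and 144 CPM among the controls and 169, 175 and 172 CPM across the knockout libraries. Again the knockout libraries lay between control replicates 1 and 2 and control replicate 3, here with control replicate 3 lowest. The log2 fold change was -0.18 (SE 0.18, edgeR adjusted p = 0.502) with all libraries and -0.39 (SE 0.07, edgeR adjusted p = 9.51e-05) without control replicate 3. MTA3 (ENSG00000057935), an MTA paralog whose expression is known to follow oestrogen receptor activity in breast epithelium, had 46.9, 48.8 and 66.7 CPM among the controls and 36.2, 39.5 and 33.3 CPM across the knockout libraries. Here every control, control replicate 3 most of all, lay above every knockout library. The log2 fold change of MTA3 was -0.57 (SE 0.16, interval -0.96 to -0.19), which missed the threshold with all libraries (edgeR adjusted p = 0.0572) and passed it without control replicate 3 (log2 fold change -0.43, SE 0.08, edgeR adjusted p = 8.44e-05). DESeq2 gave MTA3 an adjusted p of 0.00925 with all libraries, and over the 12 alternatives its adjusted p ran from 8.44e-05 to 0.213.

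Per kilobase of exon the total of the MTA transcripts was 74.9 ± 7.65 CPM per kb (SD, n = 3) in control and 74.8 ± 1.19 in knockout libraries, and 70.5 in control replicates 1 and 2 alone, while its make-up differed between libraries. MTA1 made up 19.7%, 20.6% and 52.2% of the total for control replicates 1, 2 and 3 and 41.4%, 40.6% and 42.2% across the knockout libraries. MTA2 made up 74.0%, 72.9% and 40.3% among the controls and 53.9%, 54.4% and 53.6% across the knockout libraries. Per exon base, MTA2 was thus the major MTA transcript in control replicates 1 and 2 and in every knockout library, and MTA1 in control replicate 3. The order in the knockout libraries rests on this length scaling. In raw counts MTA1 (17834, 18730 and 19599) lay above MTA2 (14199, 15357 and 15220) in every knockout library. The group means of the MTA1 share, 30.8% ± 18.5 and 41.4% ± 0.806 (SD, n = 3 each), could not be separated (two-sided exact permutation p = 0.4). Against control replicates 1 and 2 alone the MTA1 share was 21.3 percentage points higher and the MTA2 share differed by -19.5 points (two-sided exact permutation p = 0.1 for each, the smallest that 2 libraries against 3 allow). MTA3 made up 6.79% ± 0.653 in control and 4.60% ± 0.394 in knockout libraries, without overlap (two-sided exact permutation p = 0.1, the smallest possible), a difference of -2.19 percentage points with all libraries and -1.82 without control replicate 3.

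**Figure D3:**
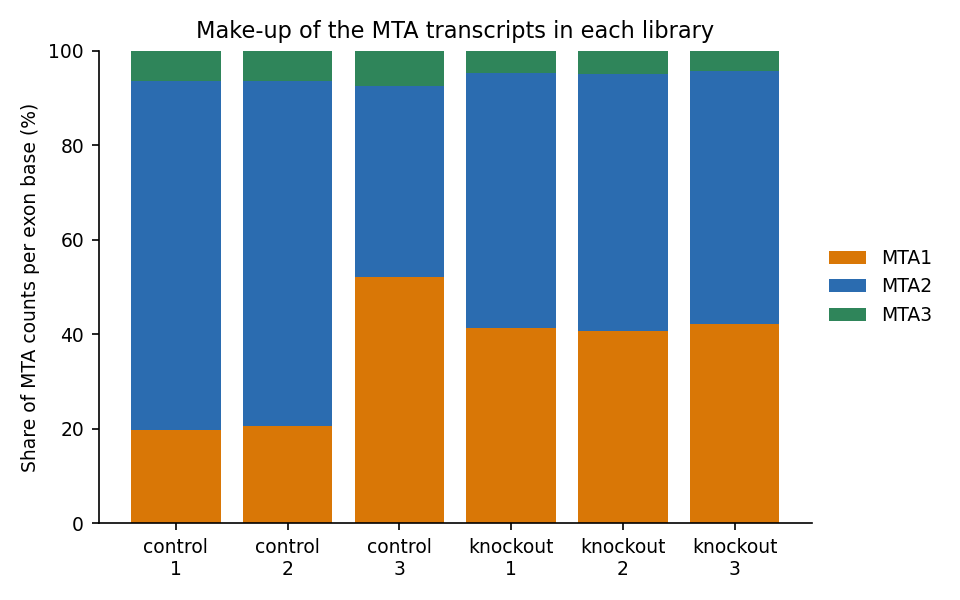
Share of MTA1, MTA2 and MTA3 in the summed MTA counts per exon base in each of the 6 libraries, in percent. The MTA1 share is 19.7% and 20.6% in control replicates 1 and 2, 52.2% in control replicate 3 and between 40.6% and 42.2% across the knockout libraries.

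CHD3 and CHD4 are the remodelling ATPases, which slide nucleosomes and occupy NuRD one at a time. CHD3 (ENSG00000170004) had 219, 207 and 190 CPM among the controls and 177, 176 and 185 CPM across the knockout libraries. The groups did not overlap, although control replicate 3 and knockout replicate 3 differed by little. The log2 fold change was -0.20 (SE 0.09, interval -0.42 to 0.02, edgeR adjusted p = 0.184), and without control replicate 3 CHD3 fell by 0.28 (SE 0.08, edgeR adjusted p = 0.00284). CHD4 (ENSG00000111642) had 27.5, 29.3 and 24.8 CPM among the controls and 26.2, 33.9 and 28.8 CPM across the knockout libraries, which overlapped. Its log2 fold change was 0.12 (SE 0.13, interval -0.19 to 0.44, edgeR adjusted p = 0.548) and 0.03 (SE 0.09, interval -0.16 to 0.22) without control replicate 3. No change of CHD4 was thus detected, and a change within these intervals could have gone unseen.

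The low level of CHD4 beside CHD3 is uncertain. In the gene models 5818 of its 6249 coding bases (93.1%) were shared with ENSG00000285238, a same-strand gene model that itself had at most 1 count in any library. CHD4 made up 10.3% ± 0.573 of the CHD3 and CHD4 sum per exon base in control and 12.5% ± 1.57 in knockout libraries (SD, n = 3 each), without overlap (two-sided exact permutation p = 0.1, the smallest possible). Scaled by the 5916 CHD4 exon bases that belong to no other gene, a scaling chosen after the overlap had been seen, the shares were 19.8% and 23.5%. The difference per exon base was 2.22 percentage points with all libraries and 2.16 without control replicate 3 (two-sided exact permutation p = 0.2).

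GATAD2A and GATAD2B encode the p66 zinc-finger proteins that tie the MBD subunit to the CHD ATPase. GATAD2A (ENSG00000167491) had 112, 116 and 88.5 CPM among the controls and 83.2, 99.3 and 85.6 CPM across the knockout libraries. GATAD2B (ENSG00000143614) had 51.1, 50.4 and 41.3 CPM among the controls and 39.3, 49.2 and 45.8 CPM across the knockout libraries. For both genes control replicate 3 lay inside the knockout range and the other controls lay above it. The log2 fold changes were -0.24 (SE 0.14, edgeR adjusted p = 0.259) for GATAD2A and -0.09 (SE 0.13, edgeR adjusted p = 0.672) for GATAD2B. Without control replicate 3 they were -0.38 (edgeR adjusted p = 0.000333) and -0.21 (edgeR adjusted p = 0.0371). GATAD2A made up 73.4% ± 0.679 of the pair per exon base in control and 71.3% ± 1.27 in knockout libraries (SD, n = 3 each; two-sided exact permutation p = 0.1, the smallest possible). This difference was -2.03 percentage points with all libraries and -2.34 without control replicate 3 (two-sided exact permutation p = 0.2).

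RBBP4 and RBBP7 are WD40-repeat chaperones that bind histones H3 and H4 and serve NuRD, SIN3 and Polycomb complexes. RBBP4 (ENSG00000162521, chr1:32651208-32686211, GRCh38) had 220, 221 and 260 CPM among the controls and 322, 314 and 278 CPM across the knockout libraries. Every knockout library lay above every control, and control replicate 3 was the highest control. The mean was 234 ± 22.6 CPM (SD, n = 3) for the controls and 305 ± 23.4 CPM for the knockouts (log2 fold change 0.38, SE 0.11, interval 0.11 to 0.65), which missed the threshold (edgeR adjusted p = 0.0637). DESeq2 gave an adjusted p of 0.0231, within a range from 9.7e-05 to 0.222 over the 12 alternatives, and without control replicate 3 RBBP4 was called (log2 fold change 0.43, SE 0.08, edgeR adjusted p = 9.7e-05).

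RBBP4 has processed pseudogenes whose reads the counting could exchange with the gene. RBBP4P1, the most abundant, had 27.1, 26.8 and 33.8 CPM among the controls and 39.9, 40.5 and 35.6 CPM across the knockout libraries, so that control replicate 3 was again the highest control and the groups did not overlap (log2 fold change 0.40, SE 0.13, edgeR adjusted p = 0.0774). RBBP4P2 was called higher at 1.97 ± 0.186 CPM for the controls and 3.29 ± 0.482 CPM for the knockouts (SD, n = 3 each; log2 fold change 0.74, SE 0.19, edgeR adjusted p = 0.0456), a call lost on leaving out any of the libraries other than control replicate 3 (0.113 to 0.178), with library size without TMM, without a filter and with the replicate block. RBBP4P5 had a log2 fold change of 0.99 (SE 0.36, edgeR adjusted p = 0.105) at between 16 and 54 counts per library. RBBP4P4, named after its values were seen, was called higher at between 9 and 27 counts (log2 fold change 1.46, SE 0.27, edgeR adjusted p = 0.0203), and leaving out any library other than control replicate 3 gave 0.077 to 0.114. The log2 fold changes without control replicate 3 were 0.49 for RBBP4P1, 0.78 for RBBP4P2, 1.38 for RBBP4P5 and 1.62 for RBBP4P4, all called. On the opposite strand SYNC, with between 33 and 101 counts per library, overlaps 22.8% of the RBBP4 exon bases. The values of RBBP4 and of its copies are therefore uncertain wherever they are given.

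Per kilobase of exon the highest mean of the 10 genes in the controls was that of MTA2, at 45.8 ± 10.4 CPM per kb (SD, n = 3), and it lay above the next gene, MBD3 at 27.9 ± 4.88, in every control library, although in control replicate 3 MTA1 (43.7) lay above MTA2 (33.8). MBD3, RBBP4 (24.7 ± 2.38), MTA1 (24.0 ± 17.0) and CHD3 (18.6 ± 1.36) followed, and each overlapped the next in its range over the 3 libraries. GATAD2A (14.2 ± 2.01) and MBD2 (12.2 ± 1.51) overlapped each other and lay below CHD3, as did GATAD2B (5.15 ± 0.592) and MTA3 (5.12 ± 1.03) further down. CHD4 was lowest at 2.14 ± 0.18 CPM per kb, with the limit on its counting given above. The limit given above for MBD3 also applies to its place in this order. In the knockout libraries MTA2 (40.4 ± 0.76) still came first, RBBP4 (32.2 ± 2.48) and MTA1 (31.0 ± 0.782) came next and overlapped, and MBD3 followed at 18.9 ± 1.60. The exon lengths came from gene models that may differ from those used in the counting.

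HDAC1, HDAC2 and RBBP7 are subunits that NuRD shares with the SIN3 complex and that the list above leaves out. With all libraries 0 of the 3 were called, beside 16.6% of all genes, and none had an unadjusted p under 0.05. All 3 were called without control replicate 3, where 65.6% of all genes were. HDAC1 had 244, 257 and 175 CPM among the controls and 208, 216 and 202 CPM across the knockout libraries (log2 fold change -0.11, SE 0.16, edgeR adjusted p = 0.652). HDAC2 had 738, 741 and 327 CPM among the controls and 629, 590 and 574 CPM across the knockout libraries (log2 fold change -0.01, SE 0.30, edgeR adjusted p = 0.984). RBBP7 had 488, 515 and 1025 CPM among the controls and 628, 681 and 582 CPM across the knockout libraries (log2 fold change -0.10, SE 0.30, edgeR adjusted p = 0.834). For each of the 3 genes the knockout libraries lay between control replicates 1 and 2 on one side and control replicate 3 on the other, as for MTA1 and MTA2. Without control replicate 3 HDAC1 fell by 0.30 (edgeR adjusted p = 0.00189) and HDAC2 by 0.34 (edgeR adjusted p = 0.00106), whereas RBBP7 rose by 0.30 (edgeR adjusted p = 0.00511). RBBP4 made up 25.9%, 24.9% and 16.4% of RBBP4 and RBBP7 per exon base among the controls and 28.5%, 26.3% and 27.0% across the knockout libraries (two-sided exact permutation p = 0.1, the smallest possible). The difference was 4.84 percentage points with all libraries and 1.83 without control replicate 3 (two-sided exact permutation p = 0.2).

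The chromosomal position of the genes was a property that their choice had not used. The neighbourhoods of MBD3, MTA1 and GATAD2A are described apart after the values around all 10 genes were seen. The 20 tested genes nearest to MBD3, 10 on each side (chr19:1397026-1981338, GRCh38), had a median log2 fold change of -0.84, and 19 of the 20 were negative like MBD3 itself at -0.56. Among the 17990 such windows around tested genes, which overlap one another, 0.661% had a median at least as low. Without control replicate 3 the median of the MBD3 neighbours was -0.77, and 2.0% of windows were as low. TCF3 (-1.08), MEX3D (-1.02) and REXO1 (-0.67) were among these neighbours, whereas RPS15 (-0.05) and UQCR11 (-0.02) were near 0; these were chosen as examples after their values were seen. In control replicate 3 the same neighbours had a median difference of -0.15 from control replicates 1 and 2.

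MTA1 lies near the end of chromosome 14, with 13 tested neighbours in its window. In control replicate 3 all 13 were higher than in control replicates 1 and 2, with differences in log2 CPM from 0.2 to 3.64 and a median of 1.46, beside 1.62 for MTA1, and 0.145% of all windows had a median at least as high. The neighbour TEX22, named for its overlap, shares 262 exon bases with MTA1 on the same strand (11.8% of the MTA1 coding bases). How reads over these bases were assigned is not known. In the knockout the median log2 fold change of these neighbours was 0.07 with all libraries and 0.79 without control replicate 3, where 12 of the 13 were positive like MTA1 (2.83% of windows as high). The neighbours of GATAD2A had medians of -0.33 with all libraries and -0.58 without control replicate 3, where 18 of 20 were negative (18.0% and 7.4% of windows as low). In control replicate 3 their median difference from control replicates 1 and 2 was -0.79 (1.76% of windows as low), beside -0.37 for GATAD2A. Around the other 7 genes the neighbour medians lay between -0.22 and 0.23 with all libraries, and RBBP4 (0.38 beside -0.17) and MTA3 (-0.57 beside 0.11) had the sign opposite to that of their neighbour median, as had CHD4 and GATAD2B at smaller values.

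**Figure D4:**
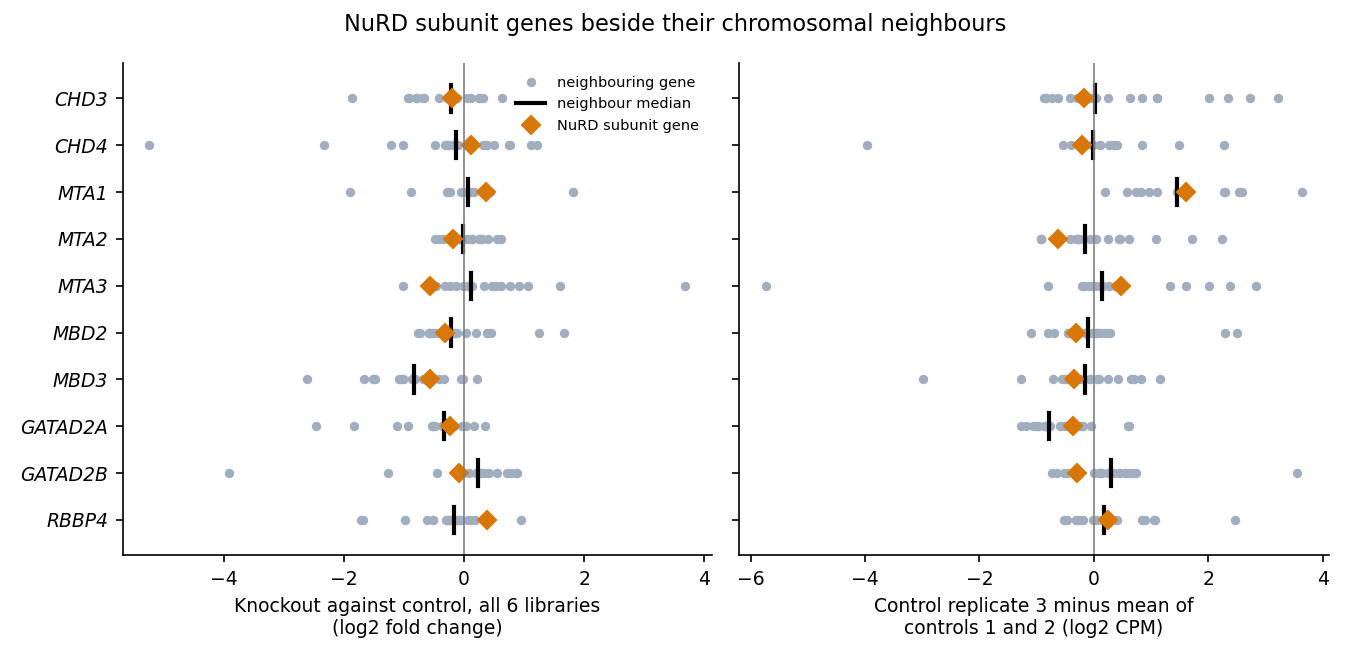
Each NuRD subunit gene (diamond) beside up to 20 neighbouring tested genes (grey points) and their median (black bar). The left panel gives the log2 fold change of knockout against control over all 6 libraries, the right panel the log2 CPM of control replicate 3 minus the mean of control replicates 1 and 2. The neighbours of MBD3 centre at -0.84 on the left, and those of MTA1 at 1.46 on the right.

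Beyond the complex itself, 10 accessory genes and 18 genes of DNA-binding factors were examined. These factors are known to bring NuRD or, for ADNP, its subunit CHD4 to chromatin. The accessory genes were CHD5, MBD3L1, MBD3L2, CDK2AP1, CDK2AP2, KDM1A, PWWP2A, PWWP2B, ZMYND8 and BEND3. Of these, 8 could be tested and 0 were called by edgeR with all libraries, beside 16.6% of all genes. An unadjusted p under 0.05 was found for 2 of them. Without control replicate 3, 5 of the 8 were called (62.5%, beside 65.6% of all genes). The MBD3-like genes MBD3L1 and MBD3L2 had at most 2 counts in any library. CHD5, a neuronal paralog of CHD4 named here after its values were seen, had 0.864 and 0.874 CPM in control replicates 1 and 2, 13.3 CPM in control replicate 3 and between 1.08 and 1.52 CPM across the knockout libraries.

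Of the 18 recruiting factors, 8 were called with all libraries, 2 higher and 6 lower, or 44.4% of the list, which was drawn up with results of these data known, beside 16.6% of all genes, and their median log2 fold change was -0.07. SALL1 and SALL3, zinc-finger repressors that bind NuRD through a short N-terminal motif, fell by 0.91 (SE 0.12, edgeR adjusted p = 0.00913) and 1.31 (SE 0.33, edgeR adjusted p = 0.0423). SALL1 had 28.2, 27.9 and 24.1 CPM among the controls and 13.1, 14.3 and 15.3 CPM across the knockout libraries, with control replicate 3 near the other controls. ZFPM1 (FOG1), the GATA1 cofactor that carries a similar motif, fell by 1.04 (SE 0.20, edgeR adjusted p = 0.0221). BCL11A, the repressor of fetal globin, had 23.3, 23.9 and 23.0 CPM among the controls and 14.3, 15.4 and 15.3 CPM across the knockout libraries, and fell by 0.64 (SE 0.10, edgeR adjusted p = 0.0131).

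ADNP, which joins CHD4 and HP1 in the ChAHP complex, had 119, 116 and 85.9 CPM among the controls and 53.9, 64.6 and 59.3 CPM across the knockout libraries (log2 fold change -0.85, SE 0.15, edgeR adjusted p = 0.0178). ZNF512B fell by 0.50 (SE 0.13, edgeR adjusted p = 0.0468). The genes that rose were IKZF2 (Helios), an Ikaros-family factor, by 0.96 (SE 0.18, edgeR adjusted p = 0.0193), and TRPS1, an atypical GATA repressor, by 0.53 (SE 0.11, edgeR adjusted p = 0.0286). All 8 were called without control replicate 3, with log2 fold changes from -1.63 (SALL3) to -0.39 (ZNF512B) for those that fell and of 0.53 (TRPS1) and 1.01 (IKZF2) for those that rose. Leaving out control replicate 3 gave 13 calls of 18 (72.2%, beside 65.6% of all genes). Of these calls 6 were higher and 7 lower, beside 32.4% and 33.2% of all genes, and the median log2 fold change of the list was 0.15. Leaving out any other library gave 0 or 1 call, while the calls over all genes fell from 3491 to between 167 and 1049.

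**Figure D5:**
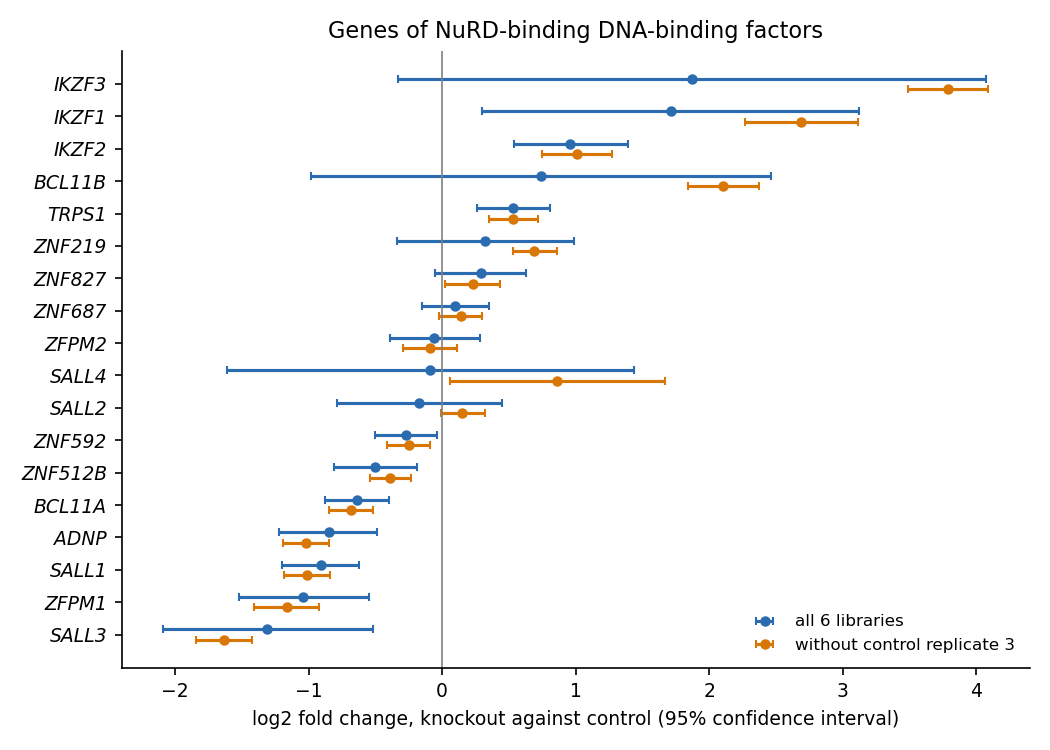
Log2 fold change of knockout against control with its 95% confidence interval for the 18 genes of NuRD-recruiting factors, in order of the value with all 6 libraries (blue) and with the value without control replicate 3 (orange) beneath it. SALL3, ZFPM1, SALL1, ADNP and BCL11A lie below 0 in both, and TRPS1 and IKZF2 above 0 in both. The largest values above 0 in both are those of IKZF3 (1.87 and 3.79) and IKZF1 (1.71 and 2.69). These genes are named after their values were seen, and neither was called with all libraries.

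The SIN3 complex shares HDAC1, HDAC2, RBBP4 and RBBP7 with NuRD. Of its 13 specific subunit genes, FAM60A included, 5 were called with all libraries, 3 lower and 2 higher (38.5% of the list, likewise drawn up with results known, beside 16.6% of all genes). Besides FAM60A these were SIN3A and SIN3B, the scaffolds of the complex, which fell by 0.57 (SE 0.10, edgeR adjusted p = 0.0185) and 0.59 (SE 0.08, edgeR adjusted p = 0.0103), and ING2, a reader of methylated histone H3, which rose by 0.64 (SE 0.16, edgeR adjusted p = 0.0405). SAP30, named after its value was seen, rose by 0.54 (SE 0.12, edgeR adjusted p = 0.0315). Fitted without control replicate 3, the log2 fold changes were -0.67 for SIN3A, -0.64 for SIN3B, 0.74 for ING2 and 0.41 for SAP30, all called. That fit gave 11 calls of 13 (84.6%, beside 65.6% of all genes). With any other library left out there were between 0 and 2 calls, while the calls over all genes fell from 3491 to between 167 and 1049. Whether the NuRD and SIN3 lists differed from each other was not tested.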

How the data were processed

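RNA-seq values of 3 control and 3 FAM60A-knockout libraries were analysed. Per the labels, the deposited values are whole-number counts per Ensembl gene, not normalised. The sources conflict on how the authors made the counts: the submitters' processing notes name STAR 2.7.10b, featureCounts 2.0.0 and hg38, the extraction protocol names hg19, and the study's methods name Trimmomatic and Salmon. The annotation release and the strand setting of the counting are not given in the sources used here, so reads of overlapping genes cannot be separated. Of 62754 genes, 60878 had a symbol.

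The counts were fitted with edgeR 4.0.16 in R 4.3.3 (TMM scaling, filterByExpr with a minimum count of 10, two-sided quasi-likelihood F-test on group, Benjamini-Hochberg adjustment over the 20992 genes tested, calls at an adjusted p of at most 0.05). The common dispersion was 0.0854 with 2.44 prior degrees of freedom, and log2 CPM values had a prior count of 2 added. The fit was tested on simulated counts with a dispersion below this one and with no control set apart. That test therefore does not show how the fit performs on the present libraries. Between 88361827 and 93346824 counts per library stood behind the values. Within-group chi-square per degree of freedom was 14.9 or more for every pair of libraries, so none was a duplicate of another. Paralog shares were counts per exon base (GENCODE v44 models lifted to GRCh37), compared by two-sided exact permutation tests. Gene positions and promoters came from RefSeq tables on GRCh38.p14, joined by unique symbol, which placed 17996 tested genes.

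The members and lists were chosen with earlier results of these data known. The genes named were the 10 members, FAM60A, HDAC1, HDAC2, RBBP7, called accessory or recruiting genes (up to 10) and SIN3 subunits (up to 4) by size of change, and the 3 most abundant pseudogenes of members. Exceptions are marked in the text. The 12 alternatives were DESeq2 1.42.0, limma-voom (limma 3.58.1), library size without TMM, no filter, at least 10 counts in every library, the replicate number as a block, and each library left out in turn. Shares were also computed from raw counts and, chosen after seeing the data, from exon bases of no other gene. PECAM1 was not matched in the table and is not analysed here. A further marker of the HEK293 list is not reported here.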

Additional observations from a re-analysis of the deposited data

How the results depend on the processing

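The count of NuRD subunits called, 1 with all libraries, was 3 with DESeq2, 2 with library size without TMM, and 0 with limma-voom, without a filter and with the replicate block (4 of the 10 at an unadjusted p under 0.05 in each of these last 3). In the same order, these fits called 5581, 3903, 3521, 2587 and 407 of all genes, beside 3491 in the edgeR fit with all libraries. The member count is followed here through the leave-one-out fits. The count of NuRD subunits called ranged from 0 to 9 as each library was left out, with 9 only without control replicate 3. The same leave-one-out ranges were 0 to 3 for HDAC1, HDAC2 and RBBP7, 0 to 5 for the accessory genes, 0 to 13 for the recruiting factors (8 with all libraries), 0 to 11 for the SIN3 subunits (5) and 167 to 14221 for all genes (3491), and the highest value each time came without control replicate 3. Leaving out knockout replicate 1 gave the 167. The replicate block gave 0 recruiting factors, 0 SIN3 subunits and 407 of all genes (unadjusted p under 0.05: 10, 8 and 6388), DESeq2 gave 5581 of all genes, and no filter gave 3 SIN3 subunits. The replicate numbers did not pair the libraries: deviations of same-numbered libraries correlated at 0.011, 0.03 and -0.036. As libraries were left out, the log2 fold change of GATAD2B ran from -0.21 to 0.005 (without knockout replicate 1), that of RBBP7 from -0.31 to 0.30 (without control replicate 3) and that of HDAC2 from -0.34 (without control replicate 3) to 0.16, and HDAC2 was 0.083 with limma-voom, 0.079 with the block, and 0.13, 0.16, 0.009 and 0.029 without control replicate 1, control replicate 2, knockout replicate 2 and knockout replicate 3. The adjusted p of MBD3 ran from 6.06e-07 to 0.186 and passed the threshold in 4 of 12 alternatives. Of the shares, CHD4 differed by 3.70 percentage points on its own exon bases (2.22 with all exon bases) and MTA3 by -4.43 from raw counts (-2.19 per exon base). Library size without TMM shifted the median log2 fold change of all genes by -0.11. The causes of these differences were not tested. Depth is a limit mainly for the pseudogenes and the other genes with few counts.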
